A study of Arabidopsis thaliana with 30 samples.

Results

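Wild-type seeds of the Arabidopsis thaliana accessions WS and Col-0 were compared on 12 of the 30 arrays of a study of seed maturation mutants. The arrays were chosen by their labels alone. They comprised 3 arrays each of WS at 8 days after flowering (DAF), Col-0 at 8 DAF, WS at 12 DAF and Col-0 at 12 DAF, and each array held RNA of whole seeds taken out of the fruit, with 3 batches of plants per group by the study's design text. None of these 12 arrays carried a mutation or a treatment. In the study, WS is the control of the homozygous lec1-1 and lec2-1 mutants, and Col-0 that of the homozygous fus3-3 mutant, with 3 arrays of each mutant at each age. The 18 mutant arrays were used here as a further set of arrays, and how far each mutant line shares the genome of its control was not tested. LEC1, LEC2 and FUS3, the genes that the mutations alter, were not analysed here.

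An accession is a natural inbred line, and accessions differ in DNA sequence, in which genes they carry and in the timing of development. Between the ages sampled here the Arabidopsis embryo passes from growth to maturation: it lays down storage proteins and oil, then makes late embryogenesis abundant (LEA) proteins, which protect the drying seed, while its chloroplasts lose their photosynthetic machinery. The seed coat, a maternal tissue, finishes its pigment and mucilage over the same period. The probes of this array type were designed on the genome of Col-0, so a sequence difference in WS under a probe can lower its signal without a change of the transcript. That effect, the batch in which each accession was grown and processed, and expression itself cannot be told apart here by the array signal alone. In whole seeds, fewer cells of a type and less RNA per cell cannot be told apart either.

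The signal is on a log2 scale, on which a difference of 1 is a 2-fold difference. The medians of the 12 arrays lay between 4.29 and 4.58 and their lowest values between 1.65 and 1.75. Replicate arrays correlated at r of 0.9848 to 0.9965 over probe sets, which are not independent replicates. The median SD over probe sets was 0.0991 in WS at 8 DAF, 0.1036 in Col-0 at 8 DAF, 0.1158 in WS at 12 DAF and 0.1417 in Col-0 at 12 DAF, so the older Col-0 seeds varied most. RNA quality was read from the actin control probes, as 3' signal less 5' signal, which was 5.69 ± 0.04 (SD, n = 3) in WS and 5.54 ± 0.04 in Col-0 at 8 DAF, and 5.33 ± 0.02 in WS and 4.87 ± 0.04 in Col-0 at 12 DAF. The same measure of the GAPDH control probes moved the other way with age. It was 1.71 ± 0.06 in WS and 1.58 ± 0.04 in Col-0 at 8 DAF, and 2.25 ± 0.06 in WS and 2.37 ± 0.34 in Col-0 at 12 DAF. The highest array was replicate 3 of Col-0 at 12 DAF (2.74). The part of RNA quality in the results was not tested. A gene counts as measured if the annotation paired a probe set with it alone. A gene not measured may still be on the array. The 9 measured reference genes, chosen for stable expression, differed between the accessions by −0.53 to 0.77 and were not called at either age, since none differed 2-fold. Not all were equal between the accessions. AT2G28390 differed by 0.77 at 8 DAF and 0.70 at 12 DAF (adjusted p = 5.9e-05 and 0.00014 in limma). AT5G46630 differed by −0.53 at 12 DAF (adjusted p = 0.0090). At 12 DAF the labels call the Col-0 arrays biological replicates but give them a number of 2 parts, and if those were not separate batches of plants, the p-values at that age measure only the spread between these arrays. Probe sets whose group mean lay under 3 were close to the lowest values of the arrays, and a fold against such a group is read as a lower bound.

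A probe set was called when its adjusted p in limma was below 0.05 and its accession difference at least 2-fold, and "higher" and "lower" refer to such calls in WS relative to Col-0. At 8 DAF, 1581 of 22746 probe sets (6.95%) were called: 751 (3.3%) were higher in WS and 830 (3.65%) were lower. At 12 DAF 1402 (6.16%) were called: 483 (2.12%) were higher and 919 (4.04%) were lower. With no fold minimum the balance turned at both ages, with 2335 higher and 1785 lower at 8 DAF and 3020 higher and 1990 lower at 12 DAF. The median difference over all probe sets was 0.011 at 8 DAF and 0.054 at 12 DAF. After a further quantile normalization it was 0.0009 and 0.015. How far this offset moved the counts without a fold minimum was not tested. The same direction at both ages was found for 142 probe sets higher in WS (0.624%) and 255 lower (1.12%), and with no fold minimum for 766 and 656. The 397 with the fold minimum were 25.1% of those called at 8 DAF and 28.3% of those called at 12 DAF. The difference itself changed with age by a called amount for 1441 probe sets (6.34%), upward for 592 (2.6%) and downward for 849 (3.73%). Of these 1441, 648 were called at 8 DAF and not at 12 DAF, 411 were called at 12 DAF and not at 8 DAF, and 46 kept their direction at both ages. Opposite directions at the 2 ages were called for 64 probe sets (0.281%). The ages share no arrays.

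**Figure D1:**
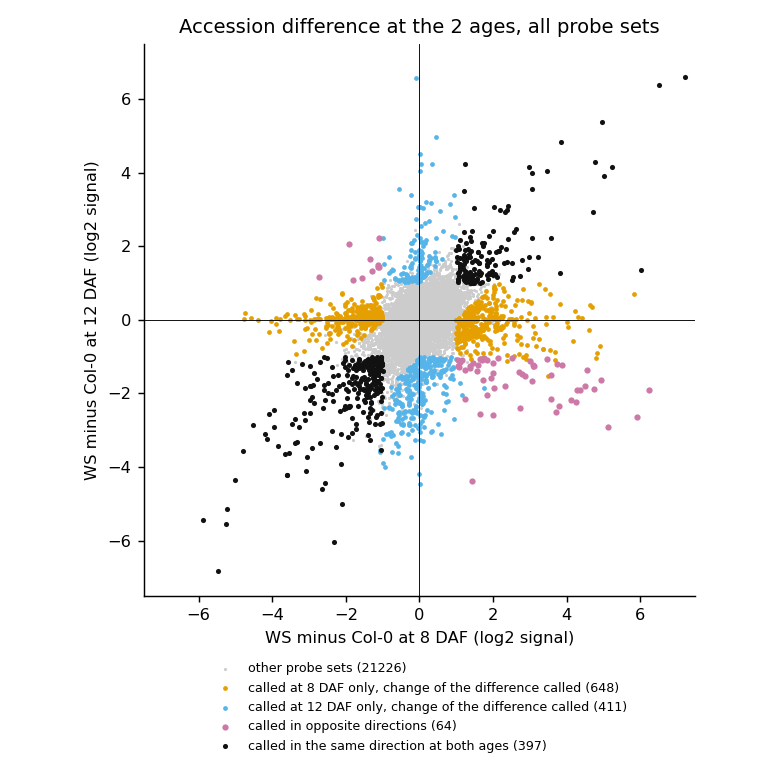
WS minus Col-0 difference in log2 signal at 8 DAF (horizontal axis) and at 12 DAF (vertical axis), 1 point for each of 22746 probe sets, coloured by class. The 397 probe sets called in the same direction lie along the diagonal, the 648 and 411 probe sets called at 8 or at 12 DAF alone with a called change of the difference lie nearer the axes, and of the 64 with opposite directions 54 lie at the lower right.

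Among genes lower in WS at both ages, several were near the bottom of the scale on every WS array and clearly above it on every Col-0 array. AT1G23960 had log2 signals of 2.13, 2.13 and 2.15 in WS and 7.16, 7.41 and 7.53 in Col-0 at 8 DAF, and 3.00, 2.17 and 2.18 in WS and 7.65, 7.78 and 7.34 in Col-0 at 12 DAF. The groups did not overlap, and WS was at least 37.6-fold lower at 8 DAF and at least 35.2-fold lower at 12 DAF (adjusted p = 7.6e-07 and 1.1e-06). AT1G73490 was at 3.30, 3.00 and 3.41 in WS against 8.42, 8.14 and 8.15 in Col-0 at 8 DAF, and at 4.43, 4.04 and 4.43 against 8.63, 8.56 and 8.81 at 12 DAF, a difference of −5.0 ± 0.14 (SE) and −4.36 ± 0.14. HTB11, a gene of histone H2B, whose family members are close in sequence and may share probes, was at 3.88, 3.89 and 4.89 in WS against 9.16, 8.96 and 8.93 in Col-0 at 8 DAF. At 12 DAF it was at 3.94, 4.78 and 4.93 against 8.09, 8.50 and 7.74. All WS arrays of HTB11 lay below all Col-0 arrays at both ages, with WS 27.8-fold and 11.8-fold lower (adjusted p = 1.8e-05 and 0.00015).

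The other genes with the largest differences were AT3G62950, AT1G12400, AT3G43740, AT2G33220, AT1G11280, AT4G19500, AT5G05750, AT1G54050 and AT2G21860. Their differences ran from −3.04 for AT2G21860 to −4.19 for AT3G62950 at 8 DAF, and from −2.91 for AT1G12400 to −4.22 for AT1G11280 and AT4G19500 at 12 DAF. AT4G19500, from the list of disease resistance genes, was between 2.38 and 2.59 on all 6 WS arrays and between 5.94 and 6.90 on all 6 Col-0 arrays. It was the 1 gene of that list called at 8 DAF among 28 measured (3.57%, against 3.15% of all genes lower). At 12 DAF 2 were lower, AT4G19500 and AT3G44630 (−1.07 ± 0.14), and 0 higher (7.14% lower, against 3.27% of all genes). The other measured genes of the list had group means from 1.96 (AT5G40060) to 3.16 (AT3G44400), close to the lowest values of the arrays. A call was hardly possible for them, so these shares say little about the list. AT3G44630 lost its call without replicate 2 of Col-0 at 12 DAF (−0.90). AT1G54050, from the list of small heat shock proteins, which are chaperones, was at 3.67, 3.14 and 3.02 in WS against 6.50, 6.39 and 6.17 in Col-0 at 8 DAF, and at 4.63, 3.23 and 2.90 against 7.70, 8.81 and 6.55 at 12 DAF. The Col-0 arrays of AT1G54050 at 12 DAF were themselves spread over more than a 4-fold range, and the lowest of them still lay above the highest WS array.

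Genes higher in WS at both ages showed differences of a similar size. AT2G15560 had the highest fold of them, with signals of 10.04, 10.02 and 9.54 in WS against 2.15, 2.99 and 2.78 in Col-0 at 8 DAF, and of 9.92 to 10.04 against 4.30, 3.76 and 2.09 at 12 DAF. WS was at least 150-fold higher at 8 DAF and 97.2-fold higher at 12 DAF (adjusted p = 1.4e-05 and 3.7e-05). AT1G50290 was at 9.60, 9.33 and 9.09 in WS against 3.07, 3.04 and 2.39 in Col-0 at 8 DAF, and at 10.23, 10.43 and 10.54 against 3.94, 4.47 and 3.62 at 12 DAF. Neither gene had a Col-0 array within 4 log2 units of a WS array. AT1G48800 was higher by 4.96 ± 0.22 and 5.38 ± 0.22, AT5G15360 by 5.23 ± 0.12 and 4.15 ± 0.12, and AT4G19240 by 5.03 ± 0.15 and 3.90 ± 0.15, at 8 and 12 DAF. The remaining genes of the largest 12 were AT1G04330, AT1G63190, AT1G02300, AT2G35820, AT1G53690, AT1G63540 and AT4G31570, with differences from 2.34 to 4.71 at 8 DAF and from 2.46 to 3.99 at 12 DAF.

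Of 1551 probe sets for a gene with a symbol, 29 were called in the same direction at both ages, a share near that of all probe sets (397 of 22746, 1.75%). The genes below are given singly and do not stand for their families. Genes for the transcription machinery and the cell wall were among those higher in WS. NRPC2, the second-largest subunit of RNA polymerase III, was at 7.08, 7.51 and 6.99 in WS against 4.59, 4.40 and 5.36 in Col-0 at 8 DAF, and at 7.14, 7.38 and 8.06 against 5.28, 5.12 and 5.59 at 12 DAF. NRPB9A, a small subunit of RNA polymerase II, was higher by 1.25 ± 0.08 at 8 DAF and 1.89 ± 0.08 at 12 DAF. The expansin gene EXPA15, whose product loosens the cell wall, was higher by 1.58 ± 0.21 and 1.59 ± 0.21. CHR42, a chromatin remodelling ATPase of the SNF2 family, was higher by 1.21 ± 0.25 and 1.76 ± 0.25. TET15, a tetraspanin membrane protein gene, was higher at both ages but by less at the later one, 14.2-fold at 8 DAF and 2.42-fold at 12 DAF, and this change was called (adjusted p = 0.00024). DRT100 went the other way, from 4.08-fold to 8.4-fold higher (adjusted p = 0.0073 for the change).

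Those lower in WS at both ages included enzymes, protein turnover genes and chloroplast genes. ALDH6B2, a methylmalonate-semialdehyde dehydrogenase of valine breakdown, was at 7.14, 7.08 and 7.09 in WS against 9.29, 9.73 and 10.04 in Col-0 at 8 DAF, and at 6.43, 6.18 and 5.82 against 7.97, 7.75 and 8.42 at 12 DAF. DER2.1, a derlin that acts in the degradation of misfolded proteins of the endoplasmic reticulum, differed by −2.04 ± 0.23 and −2.42 ± 0.23. UBC28, a ubiquitin-conjugating enzyme, was at 8.54, 8.56 and 8.84 in WS against 10.36, 10.75 and 10.62 in Col-0 at 8 DAF, and at 9.47, 9.46 and 9.47 against 10.86, 10.81 and 10.84 at 12 DAF, with no overlap. The glycosyltransferase genes UGT73C2 and UGT88A1 differed by −2.80 ± 0.19 and −1.32 ± 0.25 at 8 DAF and by −1.60 ± 0.19 and −2.27 ± 0.25 at 12 DAF. They were the 2 genes lower at both ages among 43 measured UGT genes (0.918% of all genes). AOR, an alkenal reductase of the chloroplast, differed by −1.37 ± 0.26 at 8 DAF and −2.78 ± 0.26 at 12 DAF, and LIL3:1, a light-harvesting-like protein, by −1.46 ± 0.20 and −1.21 ± 0.20.

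The measured genes called in the same direction at both ages were spread over the chromosomes. Of the 397 probe sets, 173 were paired with no gene and 18 with several, and these have no place in the counts below. They made up between 1.34% (chromosome 4) and 1.74% (chromosome 5) of the measured nuclear genes of each chromosome. Of 83 such genes higher in WS (0.625% of all genes), 1 (1.2%) had its next measured neighbour higher as well, against 0.628% of all measured genes with a higher neighbour. Of 119 nuclear genes lower in WS, 1 (0.84%) had a lower neighbour, against 0.9%. No run of 3 or more neighbours was found among the measured genes, whose next measured gene need not be the true neighbour. The pair higher in WS was AT3G60980 and AT3G61010, at 2.21 ± 0.25 and 1.63 ± 0.18 at 8 DAF. The call of AT3G61010 at 12 DAF was lost when all 30 arrays were fitted together (adjusted p = 0.061 in limma). Among 990 measured pseudogenes and transposon genes, 5 were called at 8 DAF (0.505%) and 9 at 12 DAF (0.909%), against 6.31% and 5.24% of all genes. How many of the 990 lay near the bottom of the scale in both accessions, where a 2-fold difference is hardly possible, is not given here. The lower share is therefore not read as a smaller difference of these genes.

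The mutant arrays gave values for the same genes in arrays that the wild-type comparison did not use. The mean of lec1-1 and lec2-1 was set against fus3-3, a contrast in which the mutation and the accession cannot be told apart. Of the 142 probe sets higher in WS at both ages, 64 were also higher in the lec mutants at both ages, against 2.14% of all probe sets, and 0 were called the other way at either age. Of the 255 lower in WS, 87 were lower in the lec mutants at both ages, against 1.7%, while 3 were called the other way at 8 DAF and 7 at 12 DAF. On 25 of the 142 and 46 of the 255 probe sets, all 18 arrays of WS, lec1-1 and lec2-1 lay apart from all 12 arrays of Col-0 and fus3-3. Over all probe sets that separation was met by 33 with the WS set higher (0.145%) and by 76 with it lower (0.334%). This separation also uses the wild-type arrays by which the 142 and 255 probe sets were chosen. The wild-type arrays alone did not overlap at either age on 393 of the 397, against 12.7% of all probe sets. The excess over all probe sets is thus partly set by that choice and does not measure what the mutant arrays add.

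AT1G23960, HTB11, AT1G50290 and AT2G33220 followed the line in this way. For AT1G23960 the means at 8 and 12 DAF were 2.14 and 2.13 in lec1-1, 2.14 and 2.15 in lec2-1, and 7.63 and 8.01 in fus3-3. For HTB11 they were 4.17 and 3.79 in lec1-1, 4.25 and 4.53 in lec2-1, and 9.45 and 8.86 in fus3-3. For AT1G50290 they were 8.36 and 9.74 in lec1-1, 8.60 and 10.50 in lec2-1, and 2.79 and 2.67 in fus3-3. Each mutant thus lay with the wild type that is its control on these genes.

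Other genes did not follow the line. With each mutant group placed on the side of the midpoint between WS and Col-0 on which it lay, a division chosen after the values were seen, the probe sets called at both ages were read. Of all 142 higher in WS, 22 had the lec mutants on the WS side and fus3-3 on the Col-0 side, 14 had all mutant groups on the WS side, 8 had all on the Col-0 side and 98 were mixed. Of all 255 lower in WS the counts were 53, 47, 16 and 139. Among those that differed by at least 2 log2 units at both ages the division was another. Of 49 lower in WS, 26 had the lec mutants on the WS side and fus3-3 on the Col-0 side, 9 had all mutant groups on the WS side, 1 had all on the Col-0 side and 13 were mixed. Of 23 higher in WS, 6 followed the line, 6 had all mutant groups on the WS side, 0 had all on the Col-0 side and 11 were mixed. AT2G15560 was one of those that set Col-0 apart, with means of 8.73 and 8.57 in fus3-3 at 8 and 12 DAF, close to the 9.87 and 9.99 of WS and far from the 2.64 and 3.39 of Col-0. AT5G15360 had fus3-3 means of 6.43 and 6.12 against Col-0 means of 1.81 and 1.91, and AT4G19240 of 6.07 and 6.14 against 2.06 and 2.17. Replicate 2 was the lowest fus3-3 array for AT4G19240, at 4.80 and 4.77. Among genes lower in WS, AT3G62950 had fus3-3 means of 3.39 and 2.50 against 6.77 and 5.78 in Col-0. AT1G12400 had fus3-3 means of 3.95 and 4.19 against 7.0 and 6.59, but its fus3-3 arrays were far apart. They were at 3.24, 5.66 and 2.96 at 8 DAF and at 3.12, 6.71 and 2.74 at 12 DAF. Replicate 2 of fus3-3 thus lay among the Col-0 arrays of AT1G12400 at 12 DAF (6.51 to 6.74). AT2G36130 alone among the single-gene probe sets of this size set WS apart, at 3.66 and 4.49 in WS against 7.74 and 7.04 in Col-0, and between 7.74 and 8.26 in all mutant groups.

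**Figure D2:**
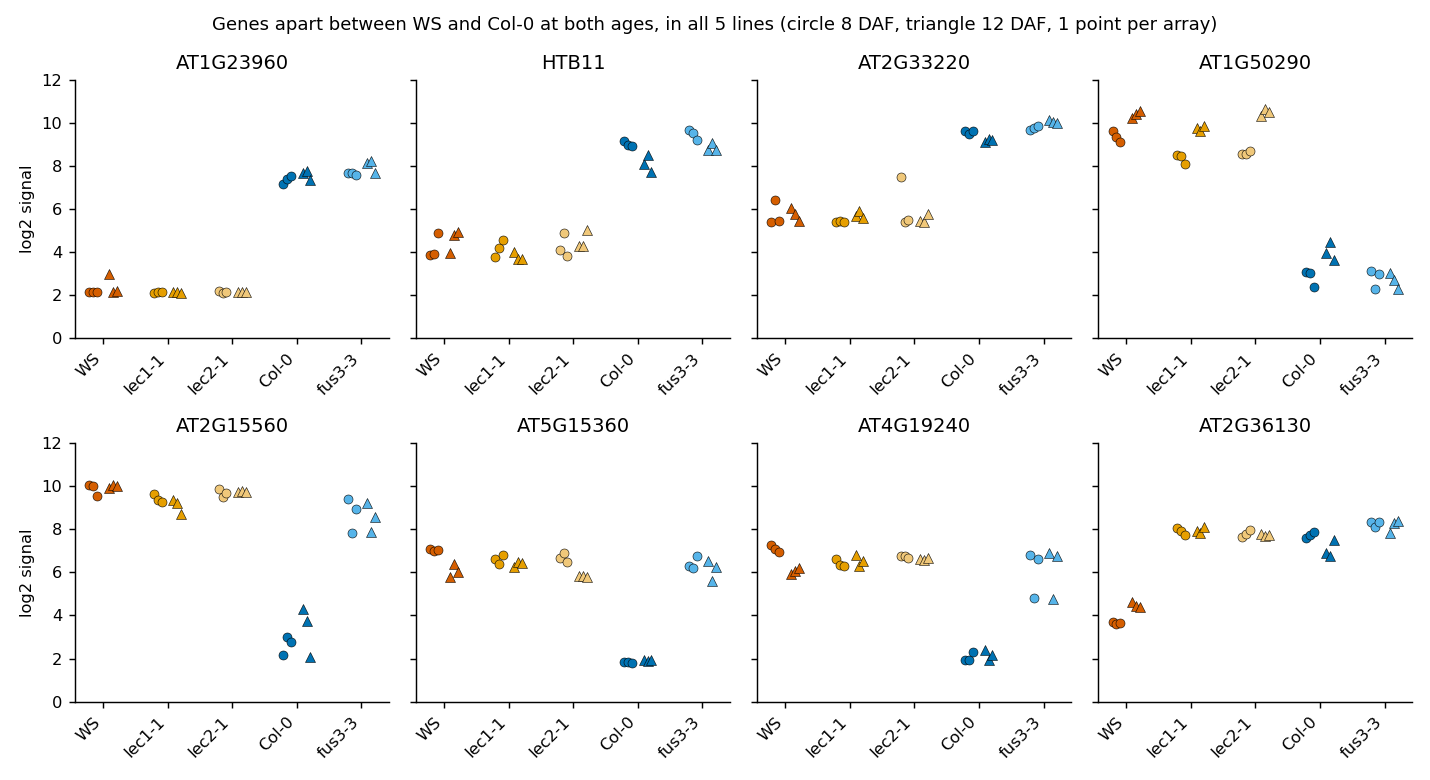
Log2 signal of 8 genes on all 30 arrays, 1 point per array, by line on the horizontal axis (circles 8 DAF, triangles 12 DAF). AT1G23960, HTB11, AT2G33220 and AT1G50290 divide WS, lec1-1 and lec2-1 from Col-0 and fus3-3, AT2G15560, AT5G15360 and AT4G19240 are low in Col-0 wild type and higher in the other 4 lines, and AT2G36130 is low in WS wild type.

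Over all probe sets, the 6 Col-0 wild-type arrays lay below the other 24 arrays on 58 probe sets and above them on 54 (together 0.492% of all). Of these, 12 and 24 were among those called in the same direction at both ages. The 6 WS wild-type arrays lay below all others on 6 probe sets and above them on 49 (0.242%), of which 3 and 11 were called at both ages. On any of these probe sets WS and Col-0 cannot overlap at either age, so the numbers called are partly set in advance. For the 6 fus3-3 arrays the counts were 244 and 200 (1.95%).

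Of 18 planned maturation regulators 4 were measured, and of 14 storage protein genes 6. Of 11 planned oil body genes 4 were measured, and of 39 LEA genes 24. At 8 DAF, 1 of 4 measured maturation regulators, 1 of 6 storage protein genes, 1 of 4 oil body genes and 6 of 24 LEA genes were higher in WS seeds (3.16% of all genes), and the other members were not called higher. The differences of these 9 genes were all within 0.5 log2 units at 12 DAF. AGL67, a MADS-box transcription factor gene of the maturing embryo, was at 7.42, 7.73 and 7.82 in WS and 4.87, 5.10 and 4.08 in Col-0 at 8 DAF, and at 10.79, 10.65 and 10.56 against 10.31, 10.63 and 10.47 at 12 DAF. WS was 7.84-fold higher at 8 DAF (adjusted p = 3.3e-05) and 1.15-fold higher at 12 DAF (adjusted p = 0.56), and the change of the difference was called (adjusted p = 0.00087). AT1G03890, from the list of seed storage proteins, was at 13.41, 13.48 and 13.73 in WS against 11.23, 10.83 and 10.24 in Col-0 at 8 DAF, and at 14.39, 14.43 and 14.34 against 14.36, 14.29 and 14.32 at 12 DAF. The arrays of the accessions overlapped for both genes at 12 DAF and not at 8 DAF. AT2G25890, from the list of oil body proteins, differed by 1.17 ± 0.13 at 8 DAF and −0.06 ± 0.13 at 12 DAF.

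Of 24 measured LEA genes, 6 were higher and 1 was lower in WS at 8 DAF (percent of all genes called, 3.16% higher and 3.15% lower), and 7 were lower and 0 higher at 12 DAF (3.27% and 1.97% of all genes). The median difference of the list was 0.38 at 8 DAF and −0.41 at 12 DAF, where all genes had medians of 0.01 and 0.06. AT1G72100 was at 5.48, 5.41 and 5.78 in WS against 3.53, 3.54 and 3.27 in Col-0 at 8 DAF, while at 12 DAF it was at 9.09, 9.04 and 8.86 against 9.25, 9.81 and 8.77, with the groups overlapping. The gene named LEA differed by 1.57 ± 0.17 at 8 DAF and −0.01 ± 0.17 at 12 DAF. AT3G15670, AT4G21020, AT3G17520 and AT5G44310 were higher by 1.52 ± 0.28, 1.49 ± 0.18, 1.28 ± 0.21 and 1.05 ± 0.12 at 8 DAF. The call of AT5G44310 was lost without replicate 3 of Col-0 at 8 DAF, at a difference of 0.92. Neither the 4 measured maturation regulators nor the 6 storage protein genes had a second gene higher at 8 DAF, and 1 storage protein gene, AT1G07750, was lower at 12 DAF (−1.22 ± 0.22). The mean log2 signal over the storage protein genes was 12.17 ± 0.07 (SD, n = 3) in WS and 11.34 ± 0.20 in Col-0 at 8 DAF, and 11.74 ± 0.07 and 11.83 ± 0.07 at 12 DAF. Single genes weighed on these means. AT1G07750 went from 10.68 at 8 DAF to 6.42 at 12 DAF in WS, and from 11.06 to 7.64 in Col-0. The median difference of the storage protein list was 0.75 at 8 DAF and 0.09 at 12 DAF.

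Among genes higher in WS at 8 DAF and within 0.5 log2 units at 12 DAF, the largest differences belonged to genes without a symbol. AT1G14950 was at 12.44, 12.46 and 12.75 in WS against 7.93, 8.00 and 7.62 in Col-0 at 8 DAF, a 26-fold difference, and at 14.67, 14.81 and 14.77 against 14.37, 14.37 and 14.44 at 12 DAF, a 1.28-fold difference. AT3G60730, AT5G45690 and AT3G56350 had the same pattern, 25-fold, 21.4-fold and 16.2-fold higher at 8 DAF and between 1.03-fold and 1.33-fold apart at 12 DAF, when all their arrays stood at or above 12.51. AT2G43390 had a different pattern, at 7.91, 8.49 and 8.41 in WS against 4.13, 3.61 and 3.27 in Col-0 at 8 DAF and between 3.14 and 3.67 on all 6 arrays at 12 DAF. Among genes with a symbol, MSRB6, a methionine sulfoxide reductase that repairs oxidised protein, was at 9.37, 9.70 and 9.57 against 6.88, 6.45 and 6.20 at 8 DAF, and at 12.53, 12.43 and 12.45 against 12.00, 12.08 and 11.90 at 12 DAF. PDF2.1, a plant defensin gene, was higher by 1.57 ± 0.16 at 8 DAF, and RR16, a response regulator of cytokinin signalling, by 1.53 ± 0.23. TBL30, cdc2cAt and MMP were higher by 2.62 ± 0.24, 1.99 ± 0.13 and 1.89 ± 0.11 at 8 DAF, and their signals lay between 2.23 and 3.04 in both accessions at 12 DAF.

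Genes lower in WS at 8 DAF and not called at 12 DAF included seed coat and cell wall genes, most of them near the bottom of the scale in both accessions at 12 DAF. JMT, the enzyme that makes methyl jasmonate, was at 3.06, 3.46 and 2.24 in WS against 7.85, 7.84 and 7.41 in Col-0 at 8 DAF and between 2.19 and 2.24 on all arrays at 12 DAF. The thionin gene THI2.2 was at 2.29, 2.66 and 2.44 against 6.18, 6.65 and 6.71 at 8 DAF and between 2.26 and 2.46 at 12 DAF. BAN, the anthocyanidin reductase that makes the precursors of seed coat tannins, was at 6.66, 6.99 and 6.80 in WS against 10.15, 10.40 and 10.01 in Col-0 at 8 DAF, 10.3-fold lower (adjusted p = 0.00013). At 12 DAF it was at 2.15, 2.81 and 3.34 against 3.92, 3.06 and 4.11, with the groups overlapping, and the change of the difference was called (adjusted p = 0.0098). GILT, from the list of seed coat markers, was at 9.59, 9.57 and 8.92 against 12.08, 12.17 and 12.12 at 8 DAF and between 2.31 and 2.51 on all arrays at 12 DAF.

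Of 8 measured seed coat genes, 3 (BAN, GILT and AT3G50990) were lower in WS at 8 DAF and 0 were higher (3.15% and 3.16% of all genes). At 12 DAF 2 were lower and 1 was higher (3.27% and 1.97% of all genes). The mean log2 signal over the list was 7.34 ± 0.12 (SD, n = 3) in WS and 8.67 ± 0.05 in Col-0 at 8 DAF, and 5.30 ± 0.04 and 5.83 ± 0.22 at 12 DAF. Of the 2 lower at 12 DAF, AT1G04380 differed by −2.10 ± 0.30, and AT3G10320 by −1.0 ± 0.20, a call lost in turn without replicate 1 or 3 of Col-0 or replicate 2 or 3 of WS (−0.93, −0.98, −0.99 and −0.82). The 1 higher at 12 DAF, AT1G76880, was at 1.10 ± 0.20 and lost its call without replicate 3 of Col-0 (0.90). DFR, dihydroflavonol reductase of the same pigment pathway as BAN, differed by −1.21 ± 0.29 at 8 DAF, and its call was lost without replicate 1 or 2 of Col-0 or replicate 3 of WS (adjusted p = 0.052, 0.064 and 0.070). The topoisomerase gene TOPII and the cell wall endoglucanase genes GH9A3, GH9B5 and GH9C1 differed by −2.21, −2.25, −2.05 and −1.36 at 8 DAF. ATPMEPCRD was 14.8-fold lower at 8 DAF and between 2.37 and 2.81 on all arrays at 12 DAF.

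Markers of the other tissues were read with these lists. Of 5 measured endosperm genes, AGL62, IKU2 and MPC lay between 2.40 and 2.81 as group means in all 4 groups, near the bottom of the scale, and 1 of the 5, GH9C1, was called. The mean over the list was 4.02 ± 0.04 in WS and 4.29 ± 0.06 in Col-0 at 8 DAF, and 3.18 ± 0.10 and 3.06 ± 0.05 at 12 DAF. The 2 measured silique wall genes, ALC and ADPG1, were not called at either age. ADPG1 was at 7.07, 7.84 and 3.64 in Col-0 at 12 DAF and at 6.08, 6.23 and 4.79 in WS, so that replicate 3 of each was the lowest of its group. The part of tissue proportions in the differences was not tested. Embryo markers were clearly present, with OLEO3, an oleosin that coats oil bodies, at group means of 13.39 to 14.52.

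**Figure D3:**
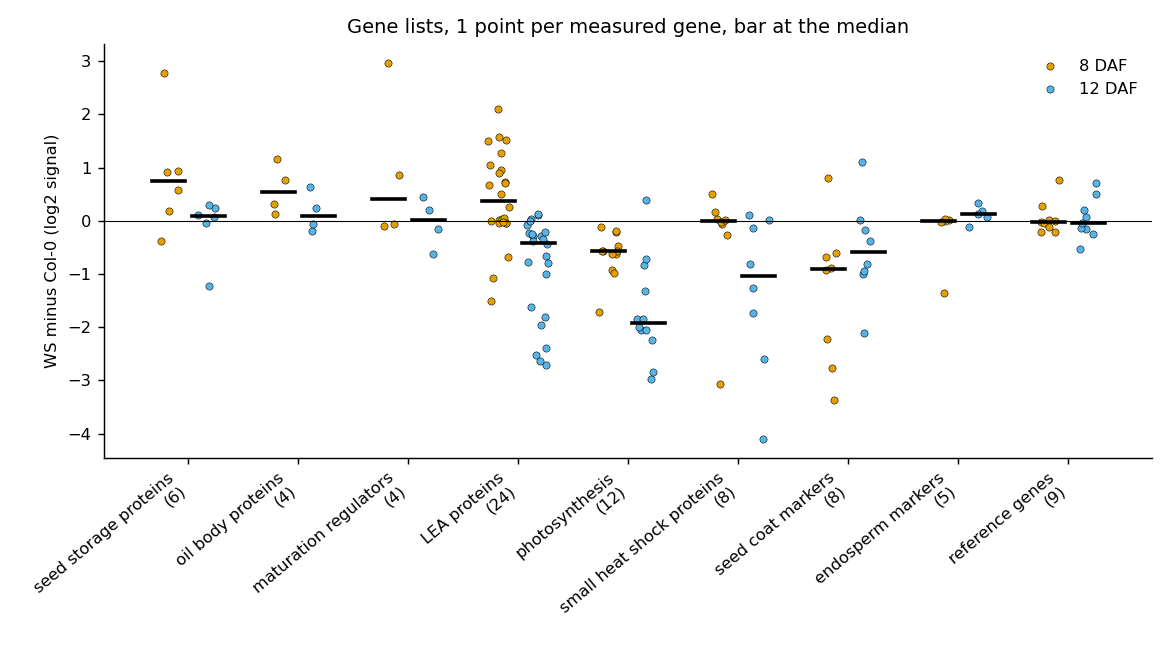
WS minus Col-0 difference in log2 signal (vertical axis) of the measured genes of 9 lists, 1 point per gene, orange at 8 DAF and blue at 12 DAF, with a bar at the median and the number of genes under each name. The LEA list lies above 0 at 8 DAF and below 0 at 12 DAF by its median (0.38 and −0.41), and the photosynthesis list has a median of −0.56 at 8 DAF and −1.93 at 12 DAF.

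Of 64 planned photosynthesis genes 12 were measured. At 12 DAF, 8 of 12 measured photosynthesis genes were lower in WS and 0 higher (3.27% and 1.97% of all genes). At 8 DAF 1 was lower (3.15% of all genes), and for 5 of the 12 a downward change of the difference was called (3.24% of all genes). PSBW, a small subunit of photosystem II, was at 11.87, 11.76 and 11.71 in WS and 11.91, 11.93 and 11.88 in Col-0 at 8 DAF, and at 4.92, 5.86 and 6.18 against 8.67, 8.51 and 8.32 at 12 DAF. The accessions were within 1.09-fold of each other at 8 DAF, and WS was 7.2-fold lower at 12 DAF (adjusted p = 0.00012, and 0.0018 for the change). PRK, the phosphoribulokinase of the Calvin cycle, was at 11.19, 11.28 and 10.70 against 11.20, 11.36 and 11.23 at 8 DAF, and at 6.59, 6.90 and 7.26 against 9.15, 8.55 and 9.06 at 12 DAF. At 8 DAF the arrays of PRK overlapped and those of PSBW were close without overlapping, without a call for either. At 12 DAF all WS arrays lay below all Col-0 arrays for both genes.

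The other photosynthesis genes lower at 12 DAF were PSAN and PSAE-1 of photosystem I, the antenna genes LHCB4.1 and LHCB4.2, ATPC1 of the chloroplast ATP synthase, and PORB of chlorophyll synthesis, with differences of −2.23 ± 0.22, −1.84 ± 0.14, −2.05 ± 0.19, −2.97 ± 0.37, −2.05 ± 0.44 and −1.85 ± 0.44. PORB lost its call without replicate 1 of Col-0 or without replicate 1 or 3 of WS (adjusted p = 0.061, 0.055 and 0.058). LHCB4.2 was the 1 member lower at both ages, at −1.72 ± 0.37 at 8 DAF. LHCB4.3, a close relative, was not called at either age, at −0.19 and 0.39. The mean log2 signal over the list was 6.07, 6.39 and 6.27 in WS against 8.14, 7.60 and 8.07 in Col-0 at 12 DAF, and 11.23, 11.03 and 10.84 against 11.67, 11.75 and 11.57 at 8 DAF. The groups did not overlap in this mean at either age. Outside the list, NdhS, of the chloroplast NDH complex, differed by −1.73 ± 0.15 at 12 DAF, and HPR, the hydroxypyruvate reductase of photorespiration, by −3.54 ± 0.15. The difference of HPR at 8 DAF was −1.05 ± 0.15 and lost its call without replicate 2 of Col-0 at 8 DAF (−0.97).

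Some LEA genes, among them dehydrin genes, and 4 of 8 measured small heat shock protein genes were also lower in WS at 12 DAF. LTI30, a dehydrin induced by cold and drying, was at 7.70, 7.15 and 8.02 in WS and 6.16, 7.70 and 6.15 in Col-0 at 8 DAF, with overlap, and at 9.0, 8.50 and 8.53 against 10.99, 11.94 and 11.21 at 12 DAF. WS was 6.51-fold lower at 12 DAF (adjusted p = 0.0027), and the change of the difference was called (adjusted p = 0.0056). COR47, another dehydrin gene, differed by −1.96 ± 0.34 at 12 DAF and by −1.07 ± 0.34 at 8 DAF, where it was not called (adjusted p = 0.061). DI21 was lower at both ages, at −1.51 ± 0.28 and −1.61 ± 0.28. The LEA genes M10, M17, AT3G22490 and AT4G36600 differed by −2.51 ± 0.65, −2.64 ± 0.72, −2.39 ± 0.50 and −1.82 ± 0.50 at 12 DAF, where replicate 2 of Col-0 was the highest array for each of them.

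These calls rested in part on single arrays. M10 lost its call without replicate 1 or 2 of Col-0 or replicate 3 of WS (adjusted p = 0.057, 0.064 and 0.062), M17 without replicate 1 or 2 of Col-0 or 2 or 3 of WS (0.095, 0.075, 0.064 and 0.093), and AT4G36600 without replicate 2 or 3 of WS (0.050 and 0.096). Of 8 measured small heat shock protein genes, 4 were lower at 12 DAF and 0 higher (3.27% and 1.97% of all genes). AT1G52560 was at 3.99, 3.31 and 3.76 in WS against 6.29, 7.29 and 5.25 in Col-0 at 12 DAF and between 3.53 and 4.0 on all arrays at 8 DAF. AT1G53540 was at 2.83, 3.58 and 3.20 against 5.13, 5.60 and 4.08. AT5G37670 differed by −1.26 ± 0.25 and lost its call without replicate 2 of Col-0 (−0.92). In Col-0 at 12 DAF the mean log2 signal over the list was 4.92, 5.50 and 4.63, against 3.90, 3.63 and 3.58 in WS.

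**Figure D4:**
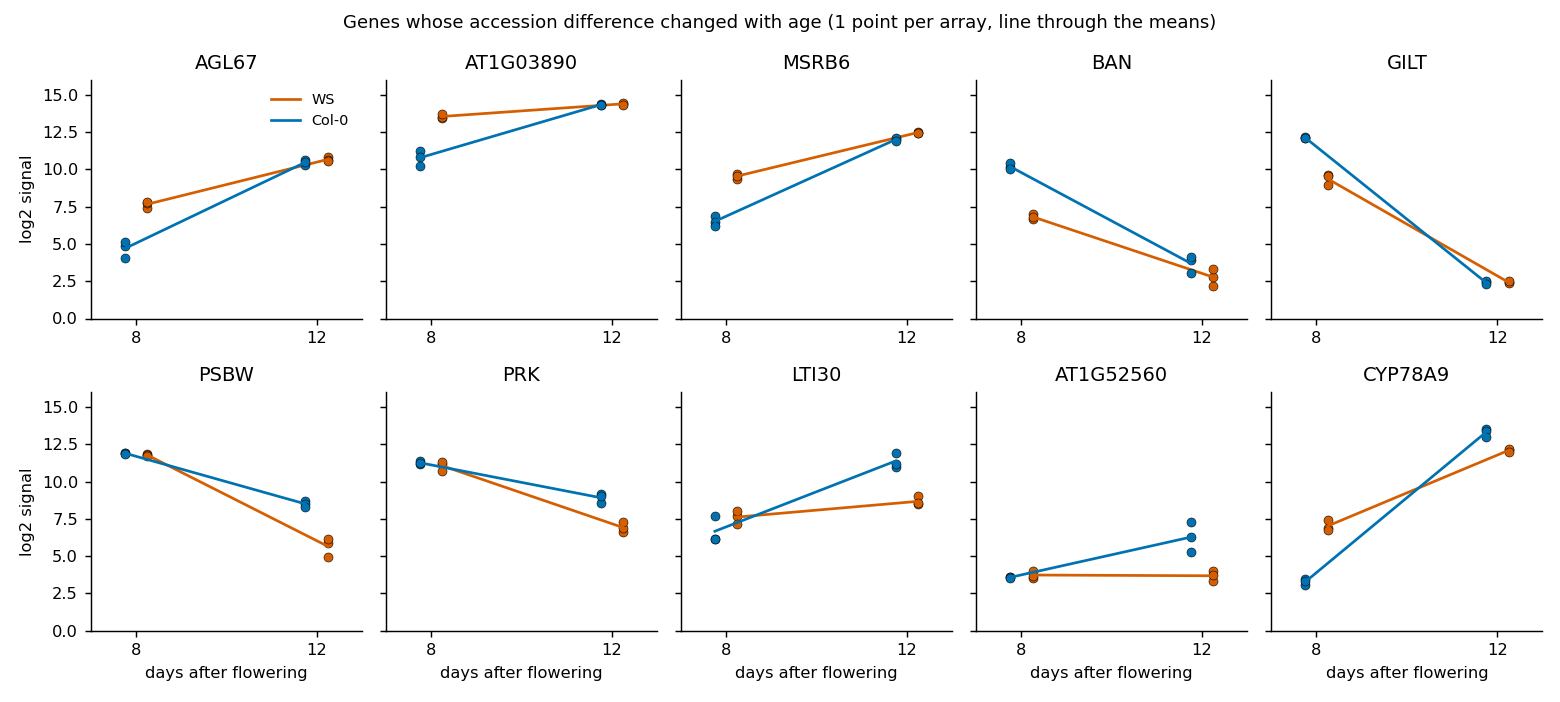
Log2 signal of 10 genes in WS (orange) and Col-0 (blue) at 8 and 12 DAF, 1 point per array, set side by side at each age, and a line through the group means. AGL67, AT1G03890 and MSRB6 are higher in WS at 8 DAF and close at 12 DAF, BAN and GILT are lower in WS at 8 DAF, PSBW, PRK, LTI30 and AT1G52560 are lower in WS at 12 DAF, and CYP78A9 is higher in WS at 8 DAF and lower at 12 DAF.

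Outside those lists, the largest differences that appeared at 12 DAF included genes at the bottom of the scale in 1 accession and well above it in the other. AT5G11420 was between 2.49 and 2.71 on all 6 arrays at 8 DAF, and at 9.21, 9.70 and 9.51 in WS against 2.71, 3.41 and 2.62 in Col-0 at 12 DAF, at least 94.5-fold higher (adjusted p = 2.3e-07). Its means in the mutants were 6.0 and 8.07 in lec1-1, 4.76 and 8.73 in lec2-1, and 7.19 and 8.88 in fus3-3 at 8 and 12 DAF, so that AT5G11420 was low in Col-0 at 12 DAF and not in fus3-3. AT5G27160 was between 2.44 and 2.56 at 8 DAF, and at 6.61, 7.29 and 7.25 in WS against 2.49, 2.54 and 2.59 in Col-0 at 12 DAF. For AT5G27160 the means at 12 DAF were 4.59 in lec1-1, 6.68 in lec2-1 and 2.56 in fus3-3. AT5G22460 and AT5G26850 had another pattern, above 8 on all arrays at 8 DAF. At 12 DAF AT5G22460 was at 9.08, 9.25 and 8.93 in WS against 5.37, 6.72 and 5.0 in Col-0, and AT5G26850 at 6.58, 6.45 and 6.53 against 3.02, 2.91 and 4.06. AT5G43450 was higher by 3.17 ± 0.33 at 12 DAF.

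Among genes with a symbol, those higher at 12 DAF and within 0.5 log2 units at 8 DAF included WLIM2a, an actin-binding LIM protein gene (1.86 ± 0.28), NRPB9B, the paralogue of NRPB9A (1.75 ± 0.26), VPS24.2 of endosomal sorting (1.64 ± 0.13) and XTH16, a xyloglucan-modifying enzyme of the cell wall (1.42 ± 0.26). Those lower at 12 DAF included SAH7, at 3.18, 3.23 and 3.29 in WS against 5.69, 6.14 and 6.73 in Col-0, and SWEET6, of a family of sugar transporters, at 2.92, 3.16 and 2.74 against 5.29, 5.87 and 5.44. Their differences at 8 DAF were −0.05 and 0.02. The glutaredoxin gene GRXC1 differed by −1.47 ± 0.25, and the glycosyltransferase genes UGT76E12 and UGT87A2 by −2.48 ± 0.32 and −2.02 ± 0.36. Of genes without a symbol, AT5G51500, AT5G50315, AT1G19540, AT1G26400 and AT5G54000 were lower at 12 DAF, with differences of −3.04 to −3.73. AT1G19540 was between 2.27 and 2.65 on all arrays at 8 DAF, and at 7.28, 6.17 and 6.34 in WS against 9.51, 10.29 and 9.78 in Col-0 at 12 DAF.

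The mutant arrays were read for these genes as well. These counts take only probe sets whose change of the difference was called. Of 326 higher in WS at 8 DAF and not at 12 DAF, 175 were also higher in the lec mutants than in fus3-3 at 8 DAF (3.82% of all probe sets), and 10 were lower. Of 322 lower in WS at that age, 102 were lower (3.1%) and 6 higher. Of 132 higher in WS at 12 DAF and not at 8 DAF, 35 were higher in the lec mutants at 12 DAF (6.01%) and 11 lower. Of 279 lower in WS at 12 DAF and not at 8 DAF, 58 were lower (5.31%) and 17 higher. The fus3-3 means of the maturation genes at 8 DAF lay on either side of Col-0. They were 2.28 for AGL67 and 2.18 for AT1G03890, below the 4.69 and 10.77 of Col-0, and 9.83 for AT2G25890, 7.09 for AT1G72100 and 13.42 for AT3G15670, above the 8.31, 3.45 and 6.95 of Col-0.

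Of the 64 probe sets with opposite directions, 54 were higher in WS at 8 DAF and lower at 12 DAF, and 10 the reverse. CYP78A9, a cytochrome P450 that promotes seed growth, was at 6.89, 6.77 and 7.41 in WS against 3.44, 3.04 and 3.33 in Col-0 at 8 DAF, and at 12.09, 12.19 and 11.99 against 13.50, 13.42 and 12.99 at 12 DAF. WS was 13.4-fold higher at 8 DAF and 2.32-fold lower at 12 DAF (adjusted p = 2.8e-06 and 0.0023). FACT, an acyltransferase of fatty alcohols, was higher in WS by 1.65 ± 0.31 at 8 DAF and differed by −2.56 ± 0.31 at 12 DAF. PPDK, pyruvate orthophosphate dikinase, differed by 1.39 ± 0.30 and −1.32 ± 0.30. AT5G12420, AT1G68850 and AT4G38080 had a different pattern. AT1G68850 was at 9.81, 10.20 and 10.48 in WS against 6.75, 5.73 and 5.65 in Col-0 at 8 DAF, and at 5.78, 5.88 and 5.79 against 8.42, 8.17 and 7.37 at 12 DAF. It was thus lower at 12 than at 8 DAF in WS and higher in Col-0 by these values. AT5G12420 and AT4G38080 went from 3.80 and 3.58 at 8 DAF to −2.34 and −2.15 at 12 DAF. MSRB5, a relative of MSRB6, was at 8.15, 8.24 and 7.55 against 5.86, 6.65 and 5.39 at 8 DAF, and at 6.54, 6.35 and 5.75 against 8.19, 8.92 and 9.31 at 12 DAF.

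Few genes of the remaining lists were measured. QQS, a gene that influences starch content, was at 3.97, 3.93 and 3.98 in WS against 5.73, 5.72 and 6.04 in Col-0 at 12 DAF, 3.66-fold lower (adjusted p = 0.0039), and differed by −1.02 ± 0.32 at 8 DAF without a call (adjusted p = 0.058). It was on the list of loci known to differ in structure between WS and Col-0, of which 2 genes were measured, and on the list for DNA methylation, silencing and imprinting, of which 3 were. Of 13 measured ER body and jacalin lectin genes, 23.1% were lower at 8 DAF, against 3.15% of all genes. They were 3: NAI2 (−1.45 ± 0.29), AT2G25980 (−1.07 ± 0.19) and PYK10, a β-glucosidase stored in ER bodies, at 2.56, 2.49 and 2.52 in WS against 4.43, 4.82 and 4.10 in Col-0. At 12 DAF 2 were higher (15.4%, against 1.97% of all genes), AT1G33790 by 1.27 ± 0.28 and BGLU19 by 1.13 ± 0.16, the latter not called after a further quantile normalization (0.93). The call of AT2G25980 was lost without replicate 1 of Col-0 or of WS at 8 DAF (−0.99 and −0.87). Of 7 glucosinolate genes, AT2G25450 was lower at 12 DAF, at −2.0 ± 0.44, and GTR2, a glucosinolate transporter, was higher at 8 DAF, at 1.05 ± 0.21, a call lost without replicate 2 or 3 of Col-0 (0.97 and 0.88). Of 9 flavonoid genes, BAN and DFR were the 2 called, both lower at 8 DAF (22.2%, against 3.15% of all genes). GI was the 1 measured gene of 35 planned for flowering time, light and the clock, and was not called. Of 29 planned genes of ABA metabolism and signalling, 0 were paired with a probe set of their own, so nothing can be said of them here. None of 5 gibberellin, 3 fatty acid and oil synthesis, or 2 triterpene genes was called at either age.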

How the data were processed

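The authors' deposited table holds log2 signal per probe set for 30 arrays. The submitters' processing notes name GCOS 1.3 and GCRMA. No source used here gives the GCRMA version or says if all arrays were run in one batch. The deposited values were used without change, all 30 columns were matched to their samples by name, and the number of unmatched columns was 0. Of 22810 probe sets, 64 controls were left out. Of the 22746 tested, 13513 were paired with 1 gene by the array annotation provided, 503 with several and 8730 with none, and genes were named through a TAIR10.1 gene table.

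The 4 wild-type groups were fitted with limma 3.58.1 in R 4.3.3 (1 mean per group, eBayes without trend), and p-values were adjusted by Benjamini-Hochberg over all 22746 probe sets. The contrasts were WS minus Col-0 at each age and the change of that difference. A second fit used the 18 mutant arrays. The fit was tested on simulated data. Figures were drawn with matplotlib 3.10.9.

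The comparison, the gene lists and the alternatives were chosen with earlier results of these data known. Genes were named by a rule: the 12 largest in each direction at both ages by the smaller difference with arrays not overlapping, the 5 largest in each direction at a single age with a difference under 0.5 at the other and a called change, up to 4 with opposite directions, list members, neighbours and family members. Further genes with a symbol, genes by the side of the mutants and further called list members were chosen after their values were seen. Lists and gene counts use 1 probe set for each of 13286 genes. Alternatives changed the scaling, the filter, the variance model, the arrays fitted, the thresholds and the replicate block, or left out each array in turn. The number of arrays limits the precision.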

Additional observations from a re-analysis of the deposited data

Results flagged for a closer look

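The accession difference at 12 DAF differed from that at 8 DAF by a called amount, in the limma test of the change itself, for 1441 probe sets. For the genes named here, the values below are the log2 difference WS minus Col-0 at 12 DAF minus that at 8 DAF.

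Downward changes, from a higher level in WS at 8 DAF, were found for the maturation genes AGL67 (−2.77), AT1G03890 (−2.71) and AT2G25890 (−1.22). The LEA genes among them were AT1G72100 (−2.39), AT3G15670 (−1.90), AT4G21020 (−1.79), LEA (−1.57), AT3G17520 (−1.53) and AT5G44310 (−1.28). Genes outside the lists were AT2G43390 (−4.88), AT5G45690 (−4.37), AT1G14950 (−4.34), AT3G60730 (−4.24), AT3G56350 (−4.09), TBL30 (−2.60), MSRB6 (−2.56), RR16 (−2.0), cdc2cAt (−1.94), MMP (−1.94), BGLU41 (−1.33), CYP71B37 (−1.32) and PDF2.1 (−1.30). Genes called in opposite directions were AT1G68850 (−6.29), AT5G12420 (−6.14), AT4G38080 (−5.74), CYP78A9 (−4.96), MSRB5 (−4.61), FACT (−4.22), PPDK (−2.71) and, upward, HTB2 (2.63). The call of HTB2 at 8 DAF was lost without any 1 of several arrays, with adjusted p up to 0.16 without replicate 3 of WS at 8 DAF.

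Downward changes to a lower level in WS at 12 DAF were found for the photosynthesis genes PSBW (−2.73), PRK (−1.79), PSAN (−1.61), LHCB4.1 (−1.49) and PSAE-1 (−1.28), for NdhS (−1.33), and for the stress genes LTI30 (−3.65), AT1G52560 (−2.75), AT1G53540 (−1.76) and AT5G37670 (−1.29). Other such genes were AT5G51500 (−3.50), AT5G50315 (−3.38), AT1G26400 (−3.28), AT1G19540 (−3.13), AT5G54000 (−3.05), SAH7 (−2.91), SWEET6 (−2.61), UGT76E12 (−2.39), TRM25 (−2.04), UGT87A2 (−1.84), GRXC1 (−1.80) and CcdA (−1.39). The call of CcdA at 12 DAF was lost without replicate 2 of Col-0 (−0.95).

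Upward changes after a lower level in WS at 8 DAF were found for JMT (4.81), THI2.2 (4.02), AT2G01610 (3.96), ATPMEPCRD (3.77), AT1G47610 (3.51), GILT (2.78), 2A6 (2.65), UGT84A3 (2.47), BAN (2.43), TOPII (2.23), SCPL34 (2.08), GH9A3 (2.06), GH9B5 (2.04), AT3G50990 (2.04), PYK10 (1.91) and GH9C1 (1.24). Upward changes to a higher level at 12 DAF were found for AT5G11420 (6.66), AT5G27160 (4.48), AT5G22460 (3.61), AT5G26850 (3.00), AT5G43450 (2.84), AT1G33790 (2.10), WLIM2a (1.82), NRPB9B (1.70), XTH16 (1.66), TET14 (1.42), SKU5 (1.42), VPS24.2 (1.39) and WRKY22 (1.06). SKU5 lost its call at 12 DAF without replicate 2 of Col-0 (0.80) or of WS (0.95), and WRKY22 without replicate 1 of Col-0 (0.94).

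Among genes called in the same direction at both ages, the difference shrank or grew by AT4G14980 −3.70, TET15 −2.55, HPR −2.49, AT1G02300 −1.78, AOR −1.41, AT4G19240 −1.13, ndhA −1.10, AT5G15360 −1.08, DRT100 1.04, UGT73C2 1.20 and AT2G36130 1.52. AT4G14980 was at 5.09, 4.50 and 4.50 in Col-0 at 8 DAF and at 8.87, 8.89 and 8.61 at 12 DAF, and was under 3.24 or at it on all WS arrays.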

How the results depend on the processing

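With 1 probe set per gene, which tests 13286 genes, the counts of calls were 832 at 8 DAF, 695 at 12 DAF, 204 in the same direction at both ages, 713 for the change of the difference and 470 on the mutant arrays at both ages. With no fold minimum they were 4120, 5010, 1422, 2494 and 3222, and with an adjusted p under 0.01 the change of the difference was called for 879. Every other alternative run left these counts within 1.5 times. Among them, a fit of only the 6 arrays of 12 DAF gave 1019 calls at that age, against 1402 in the main fit. A fit of only the 6 arrays of 8 DAF gave 1494, against 1581. Over single arrays left out, the ranges were 1399 to 1659 at 8 DAF, 1270 to 1623 at 12 DAF, 346 to 407 at both ages, 1220 to 1693 for the change and 837 to 909 on the mutant arrays. The replicate block gave 1540, 1360, 379, 1332 and 874. Replicate numbers were not taken as pairing the arrays, since same-numbered arrays of WS and Col-0 correlated in their deviations at −0.20, −0.08 and −0.09 at 8 DAF and at −0.13, −0.01 and 0.08 at 12 DAF, and fewer than 3 pairs exceeded 0.1. Of 6468 alternative values of 171 genes, 86 lost the call, 17 gained it and 0 of those called in the main fit changed direction. The other 6365 stayed called or stayed uncalled. A change of sign of an uncalled value was not counted. Calls were lost for 5 values with all 30 arrays in 1 fit, 7 with centring on reference genes and 7 with quantile normalization. Depth does not apply to arrays. Probe sets near the bottom of the scale hold bounds and not levels.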

Other observations

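Genes of the plastid genome, which encode subunits of the photosynthetic complexes and of the plastid's own gene expression, were measured by 69 probe sets. In WS, 7 were lower and 0 higher at 8 DAF, and 11 were lower and 1 higher at 12 DAF, where 3.65% and 4.04% of all probe sets were lower. The median difference over the 69 probe sets was −0.56 at 8 DAF and −0.69 at 12 DAF. The 3 lower at both ages were ndhA, ndhG and ndhI, subunits of the plastid NDH complex. The ndhA signals were 7.38, 7.03 and 6.91 in WS against 8.64, 9.12 and 8.74 in Col-0 at 8 DAF, and 5.38, 5.46 and 5.0 against 8.05, 8.36 and 7.90 at 12 DAF, without overlap. The ndhI signals differed by −1.32 ± 0.17 (SE) and −2.23 ± 0.17. The call of ndhG at 12 DAF was lost without replicate 3 of Col-0 (−0.98) or replicate 2 or 3 of WS (adjusted p = 0.055 and 0.071).

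The photosystem II genes psbE, psbF, psbI and psbK differed by −1.10, −1.45, −1.19 and −1.21 at 12 DAF and were not called at 8 DAF. The 1 gene higher in WS at 12 DAF was psbA, the reaction centre protein of photosystem II, at 1.81 ± 0.28 (adjusted p = 0.0022). Its difference at 8 DAF was 0.86 ± 0.28 and was not called (adjusted p = 0.066).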
